A study of Drosophila melanogaster with 999 samples.

Results

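The ETS family is a group of transcription factor genes, of which 8 fly genes were looked up by symbol here: Ets21C, Ets65A, pointed (pnt), anterior open (aop, also called yan), Eip74EF, Ets96B, Ets97D and Ets98B. The gene counts held 7 of these 8 among 7279 genes, and Ets98B was found only in the transcript estimates. The genes were chosen by family membership with earlier results of these data in view, in which Ets21C and Ets65A had already been seen to vary with groups of cells defined by homeodomain genes. The values on Ets21C, Ets65A and homeodomain genes below are therefore a description and carry no test.

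The cells were single neurons of Drosophila melanogaster embryos aged 19 to 20 h, in which the OK371-GAL4 driver switched on UAS-RFP, and the RFP-positive, DAPI-negative and DRAQ5-positive cells were sorted one per well for full-length SMART-Seq2 libraries. OK371-GAL4 is inserted at the vesicular glutamate transporter gene VGlut, so it labels glutamatergic neurons, most of which are motoneurons in the fly nerve cord, and not motoneurons alone. Primers for 7 Hox genes were added to the reaction, so Hox reads were enriched relative to all other genes. The 999 cells formed 1 group with no control, came from pooled embryos, and carried no label for the embryo, so they were treated as 1 pooled sample and differences between cells were described without p-values.

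The 999 cells lay on 16 plates of 17 to 82 cells. The total count per cell had a median of 340803 and ran between 100027 and 5834773, and plate medians lay between 129256 and 658763. A median of 1487 genes had at least 1 read in a cell. Intervals below are exact Clopper-Pearson 95% intervals of shares or exact Poisson 95% intervals of sums, and they cover counting error only, since reads without molecular identifiers are not independent molecules. A total of 8 cells on 5 plates had no read of the synaptic genes nSyb and brp. They had a median of 2634.5 genes and 985514 counts, against 1484 genes and 338504 counts in the other 991 cells. Of these 8 cells, 1 had VGlut reads, 5 had elav reads, and all 8 had reads of at least 1 ETS gene. Values without them are also given for results that rested largely on them.

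ETS proteins bind DNA through a winged helix-turn-helix domain, the ETS domain, which recognises a GGAA core. In the fly, Pnt is an activator and Aop a repressor that act downstream of receptor tyrosine kinases, Ras and MAP kinase, and compete for shared sites. Ets21C is known as a target and partner of JNK signalling in stressed tissue, Eip74EF is an early gene of the ecdysone response, and Ets97D is the fly homologue of the GABP alpha subunit. Ets65A is related to vertebrate ERG and FLI1, Ets96B to the ETV1, ETV4 and ETV5 group, and Ets98B to SPDEF. Homeodomain genes are the best known determinants of motoneuron type, and in vertebrates ETS genes such as ER81 and PEA3 mark particular motoneuron pools.

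ETS genes were mostly sparse, and aop was the only one with reads in more than 10% of cells. Reads of at least 1 of the 7 genes were found in 425 of 999 cells (42.5%), of which 326 had 1 gene, 85 had 2, 13 had 3 and 1 had 4. Without aop, 216 cells (21.6%) had an ETS gene and 24 cells had 2 or more. In most of these neurons that had an ETS gene, therefore, a single family member was seen.

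aop, the MAP kinase-regulated repressor, was detected in 296 cells (29.6%, 26.8 to 32.6%). Its share ran between 16.9% and 41.4% over the plates, and no plate lacked it. Ets65A followed with 80 cells (8.01%, 6.40 to 9.87%). The intervals of aop and Ets65A overlapped neither each other nor that of any other family member. Ets97D had reads in 44 cells (4.40%, 3.22 to 5.87%), Eip74EF in 41 cells (4.10%, 2.96 to 5.53%) and Ets21C in 30 cells (3.0%, 2.04 to 4.26%). pnt and Ets96B had reads in 24 cells each (2.40%, 1.55 to 3.55%). The intervals of these 5 genes overlapped, so their order was not settled at this depth. For comparison, the median gene of the table was detected in 116 cells, and the median of the 63 listed homeodomain genes in 71.

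The picture changed with a minimum of 10 reads. Then aop remained in 219 cells, Ets65A in 68, Ets97D in 38, Ets21C in 23, Ets96B in 15, pnt in 14 and Eip74EF in 9. The interval of Ets97D (2.71 to 5.18%) lay above those of Ets96B (up to 2.46%), pnt (up to 2.34%) and Eip74EF (up to 1.70%). It overlapped that of Ets21C (1.46 to 3.43%). Eip74EF lost the most, since 32 of its 41 cells had fewer than 10 reads and 16 had a single read. When every cell was thinned to 50000 reads, Eip74EF was seen in 13 cells, against 252 for aop, 68 for Ets65A, 41 for Ets97D, 27 for Ets21C, 17 for pnt and 15 for Ets96B. There too the interval of Ets97D (2.96 to 5.53%) lay above those of pnt, Ets96B and Eip74EF.

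Reads per positive cell separated genes that were rare but strong from one that was common and moderate. In its 30 cells Ets21C had between 1 and 2039 reads with a median of 149.5, and 16 of them had at least 100 reads. Ets65A had between 1 and 1373 reads in its 80 cells with a median of 85, and 36 cells had at least 100. aop had between 1 and 887 reads with a median of 38. In total the 30 Ets21C cells gave 15818 reads (15572 to 16067) and the 80 Ets65A cells 15826 (15580 to 16075), fewer than the 22664 reads (22370 to 22961) of the 296 aop cells but from far fewer cells. Ets96B had between 1 and 2930 reads with a median of 67.5, pnt between 1 and 1642 with a median of 24, Ets97D between 1 and 370 with a median of 42, and Eip74EF between 1 and 150 with a median of 2. The 5 highest cells held 82.2% of all pnt reads, 78.4% of Eip74EF reads, 78.3% of Ets96B reads and 56.4% of Ets21C reads, against 41.3% for Ets97D, 32.9% for Ets65A and 13.7% for aop.

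**Figure D1:**
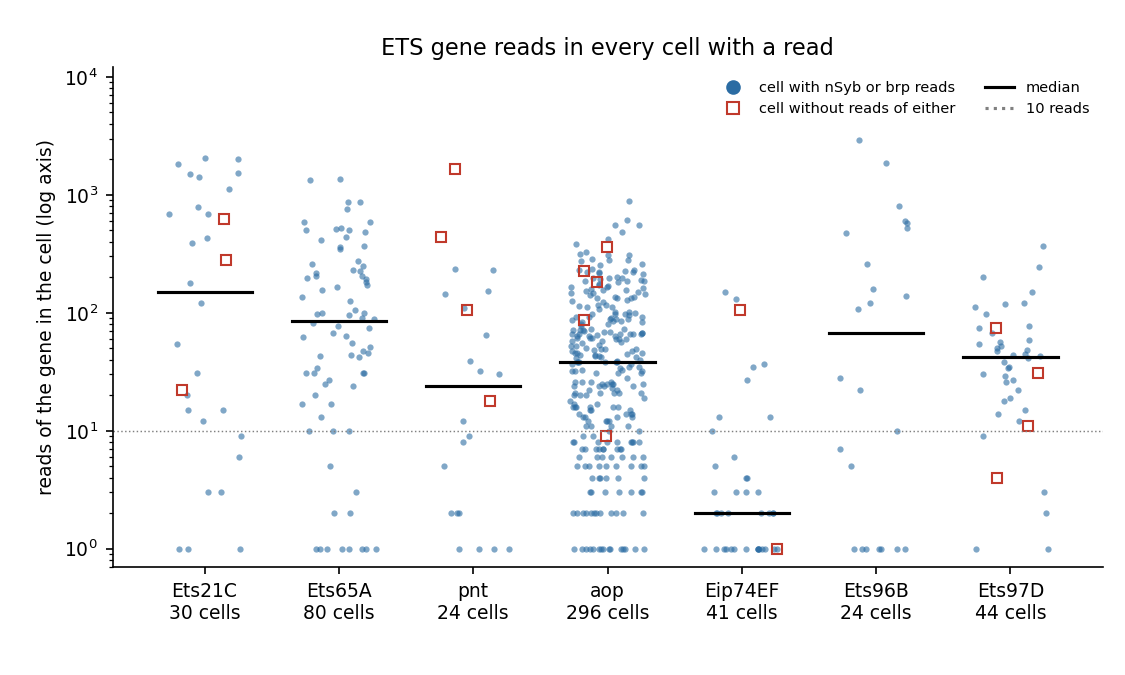
Reads of each ETS gene in every cell with at least 1 read, on a log axis, with the median of those cells as a bar and 10 reads as a dotted line; open squares are the 8 cells without reads of nSyb and brp. Ets21C and Ets65A medians lie at 149.5 and 85 reads, that of Eip74EF lies at 2 reads, and the 2 highest pnt cells are open squares.

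Levels of different genes were compared as TPM, which is per transcript length. Averaged over all 999 cells, Ets21C stood at 29.2 TPM, Ets65A at 25.7 TPM and aop at 25.5 TPM, so the mean level of these 3 genes was similar although the number of cells behind it was not. Ets96B stood at 7.96 TPM, Ets97D at 7.14 TPM, pnt at 2.87 TPM and Eip74EF at 0.281 TPM, whereas elav, a neuronal RNA-binding protein gene, stood at 239 TPM. Among the cells with at least 10 reads, the median level was 1074 TPM for Ets21C, 432 TPM for Ets96B, 270 TPM for Ets65A, 137 TPM for Ets97D, 79.7 TPM for pnt, 79.0 TPM for aop and 17.9 TPM for Eip74EF. As reads scaled to the library total (RPM), without regard to length, aop had the highest mean of the family, at 52.4, ahead of Ets65A at 38.5 and Ets21C at 26.3.

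Relative to genes of the same mean level, the variability over the 733 cells low in both twit and Vmat (under 10 reads each), genes that mark other classes of these neurons, set Ets21C, Ets96B and Ets65A apart. The log2 ratio of the squared coefficient of variation to a fitted trend was 2.21 for Ets21C (rank 44 of 7207 genes), 1.39 for Ets96B (rank 103) and 1.10 for Ets65A (rank 149). It was 0.37 for pnt, -0.36 for aop, -0.71 for Ets97D and -2.29 for Eip74EF, beside a median of -0.52 over all genes and 0.75 over the 60 homeodomain genes fitted.

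Transcript estimates were checked for each locus (BDGP6.54 coordinates). Ets21C lies on chromosome 2L at 544925 to 552923, and 70.8% of its estimated counts went to Ets21C-RB, a short transcript between 547016 and 549502, with 29.2% to Ets21C-RC. Ets21C-RA and Ets21C-RD received none. Ets65A lies on 3L at 6097617 to 6123913, where the short Ets65A-RB (6111467 to 6122862) took 48.0% and 4 long transcripts of 4190 bases, which the estimates could not separate, took 52.0%. Of the 68 cells with at least 10 Ets65A reads, 33 had most of them on the short transcript and 35 on the long ones, so neither form was general.

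aop lies on 2L at 2156484 to 2178754 and was read almost wholly as aop-RE, which took 89.1% of its counts and most of the reads in 200 of 219 cells. pnt lies on 3R at 23290231 to 23346167 and spread over pnt-RC (51.3%), pnt-RB (24.3%), pnt-RD (15.7%) and pnt-RE (8.76%). Ets96B, on 3R at 24788054 to 24797955, was read as Ets96B-RC in 97.4% of its counts. Eip74EF lies on 3L at 17558672 to 17619325, and its long transcripts RA, RC and RE together took 69.5% and Eip74EF-RB 28.3%. Ets97D, on 3R at 26910775 to 26912886, has transcripts that the estimates could not separate. Ets98B, on 3R at 27736538 to 27748366, had estimated counts of 196, 3 and 2 in 3 cells and 0 in all others. Isoforms share exons, so these shares are estimates, and most of them rest on few cells.

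The cells lacking nSyb and brp carried much of the pnt signal. pnt was found in 4 of these 8 cells, against 20 of the other 991, and the 4 cells held 67.2% of all pnt reads. Outside them the highest pnt count was 233, the median over positive cells was 10.5 reads, and the 5 highest cells held 80.5% of the reads. Without the 8 cells the mean of pnt was 2.70 TPM and its median over the 10 cells with at least 10 reads was 211 TPM, and pnt-RC took 47.8% of its counts, pnt-RB 33.7%, pnt-RD 13.4% and pnt-RE 5.10%. Its log2 variability ratio was then 0.65. For Eip74EF the mean was 0.268 TPM without them, its median over 8 cells was 20.9 TPM, and Eip74EF-RB took 34.6% of its counts. For Ets21C the median over 20 cells was 1496 TPM, the median over positive cells was 120 reads, and Ets21C-RB took 75.2%. Ets21C was found in 3 of the 8 cells, against 27 of the 991, with 5.83% of its reads. Ets65A and Ets96B had no read in any of the 8.

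The 3 cells that had both pnt and Ets21C at 10 reads or more were all among these 8 cells. They had 1642 and 621 reads, 442 and 279 reads, and 105 and 22 reads of pnt and Ets21C, and the hemocyte markers Pxn, srp and eater were present in each. Pxn, a peroxidasin made by blood cells, had estimated counts of 11265, 4768 and 36 in them, and srp, a GATA factor of blood cells, had 1640, 679 and 126. The 5 hemocyte markers Hml, NimC1, Pxn, srp and eater summed to between 166 and 14818 in these 3 cells, which held 5, 5 and 3 of the 5, and NimC1 and Hml were at 0 in the third of them. In the other 27 Ets21C cells the sum ran between 0 and 6 and was 0 in 21 cells, and in the other 20 pnt cells it also ran between 0 and 6 and was 0 in 16. Over all 991 cells with nSyb or brp reads it was 0 in 895 cells, its highest value was 845, and no cell had more than 2 of the 5 markers. Most Ets21C cells therefore lacked hemocyte markers. The neuronal markers VGlut, elav, nSyb and brp summed to between 180 and 7167 counts in the 27 Ets21C cells, against 0 to 25 in the 3 cells with hemocyte markers. The 2 groups were divided by nSyb and brp, so these 2 genes add nothing to that contrast. Of the other 2 markers, VGlut had reads in 27 and elav in 26 of the 27 cells. In the 3 cells VGlut was at 0 and elav at 22, 25 and 0.

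Other members of the family were found in the remaining cells of this kind. A cell with 106 reads of Eip74EF and 361 of aop had estimated counts of 1449 of wrapper and 543 of Eaat1, which are glial genes, and 25488 reads of nrv2, while repo, moody, gcm and alrm were at 0. The same cell had 969 reads of the muscle marker Mef2 and 777 of the aminergic marker Ddc, while the other listed muscle and aminergic markers were at 0. A cell with 224 reads of aop had 229 counts of the glial determinant repo, 205 of Eaat1 and 1500 reads of nrv2. In it moody, gcm, wrapper and alrm were at 0. nrv2 was also found in 637 of the other 991 cells (64.3%), so by itself it did not set these cells apart. The 8 glial markers summed to between 0 and 27512 in the 8 cells, with repo in 1 of them and alrm in none, and to between 0 and 3013 in the other 991 cells. A cell with 74 reads of Ets97D had the neural progenitor genes dpn, wor, ase and mira at 273, 395, 30 and 236 counts, together with 1266 counts of the glial determinant gcm and 846 of elav. The number of such cells was too small to give a level for any of these cell types.

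The RTK and MAP kinase pathway that acts on Pnt and Aop was present in these neurons, but unevenly. Of 35 listed pathway genes, 27 were in the gene counts. The receptor Alk was detected in 97.0% of cells and its ligand jeb in 89.2%, the antagonist kek1 in 72.2%, the MAP kinase rl in 69.0%, the insulin receptor InR in 66.0% and the phosphatase csw in 52.0%. The receptors Egfr, btl and htl, looked up after the others, had estimated counts in 7, 7 and 3 cells.

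To ask whether a partner gene was found more often in cells with an ETS gene than in cells without it, the log2 odds ratio of detection was taken (0.5 added to each of the 4 cell counts), and values at or above 1 or at or below -1 were counted among genes whose expected number of shared cells was at least 5. Across all genes tested, 2.96% reached 1 with aop and 1.11% reached -1, and among the 27 pathway genes none did either. Their median with aop was 0.16, beside 0.15 over all genes. The highest were the receptor Pvr at 0.94, the protease ru at 0.64 and the scaffold ksr at 0.57, and the lowest were Sos at -0.37, Dsor1 at -0.34 and Alk at -0.29. Thus the distribution of aop over the cells did not set pathway genes apart.

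With pnt, 10.6% of the tested genes reached 1 and 13.5% reached -1. Of the 13 pathway genes tested, sty, the feedback inhibitor Sprouty, was at 1.45, and Alk and jeb were at -3.77 and -1.88. Without the 8 cells these values were 0.89, -3.14 and -0.83, so the sty and jeb values passed 1 in size only with those cells. Next after sty came drk at 0.93 and S at 0.92, which were 1.04 and 0.31 without the 8 cells, and the third lowest was ths at -0.63.

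For JNK signalling, 7 of 10 listed genes were in the table, and none of the 6 tested reached 1 or -1 with Ets21C (background 11.9% and 5.32%). The highest were kay at 0.46, hep at 0.32 and bsk, the JNK gene itself, at 0.08, with bsk detected in 55.2% of all cells. The lowest were Tak1 at -0.37, puc at -0.24 and msn at -0.06. Without the 8 cells lacking nSyb and brp, kay, hep and bsk were at -0.03, -0.04 and -0.20. Tak1, puc and msn were then at -0.62, -0.59 and -0.40. For the ecdysone response, Eip75B was detected in 87.8% of cells, ftz-f1, Eip63E and br in more than 50%, and Hr4 in every cell. Of the 10 genes tested with Eip74EF, the receptor Hr39 reached 1, at 1.30 in 19 of 41 cells, and none reached -1 (background 7.19% and 2.78%). Next came usp, the partner of the ecdysone receptor, at 0.80 and Eip78C at 0.52, although usp was at -2.07 at 10 reads, where Eip74EF was left with 9 cells, and the lowest were ftz-f1 at -0.24, br at -0.10 and Hr38 at 0.09. ewg, the fly homologue of the nuclear respiratory factor NRF-1, was the one listed mitochondrial regulator that could be tested with Ets97D, and stood at 0.88 (21 of 44 cells). Cells with Ets97D had a median of 1749.5 genes, against 1487 in all cells, and with this gene 20.6% of all genes tested reached 1 and 3.29% reached -1. The medians were similar in Eip74EF cells (1747 genes) and Ets21C cells (1739.5 genes), and a link to these shares was not tested.

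Co-detection within the family was examined next. Ets96B and aop were found together in 17 of the 24 Ets96B cells, where 7.11 would be expected from their separate frequencies, with a log2 odds ratio of 2.54. At 10 reads it was 3.25 (11 cells), with thinned reads 3.47 and within plates 2.76. aop was shared by 31 of 80 Ets65A cells (0.65), 11 of 30 Ets21C cells (0.50), 17 of 44 Ets97D cells (0.62), 14 of 41 Eip74EF cells (0.34) and 10 of 24 pnt cells (0.80). Ets21C and Ets65A, in contrast, shared no cell, although with 2.40 expected cells the limit is a weak one. Ets21C and pnt shared 5 cells, where 0.721 were expected, and 2 cells without the 8 cells that lacked nSyb and brp.

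Ets65A had the most homeodomain genes at or above 1, although more could be tested with it than with any other member but aop. Of 34 homeodomain genes tested, 9 (26.5%) reached 1 and 3 reached -1, beside 2.23% and 4.38% of 4842 genes of all kinds. Rx, a retinal homeobox gene, was found in 16 of 80 Ets65A cells (20.0%), against 5.77% of the other cells, with a log2 odds ratio of 2.05. Lmx1a, a LIM-homeodomain gene, was found in 17 of 80 (21.3%), against 7.29% (1.80). The Pax6 gene toy was found in 31 of 80 (38.8%, 28.1 to 50.3%), against 16.8% (1.66). zfh2 followed at 1.43, the POU gene vvl at 1.36, unc-4 at 1.35, Dr at 1.34, scro at 1.18 and the second Pax6 gene ey at 1.0. The homeodomain gene hbn stood higher than all of these, at 3.05 with 16 cells, but its expected overlap fell under the minimum. On the other side stood pros at -1.63 with 2 cells, Lim3 at -1.77 with 9 cells (11.3%, against 31.2%) and oc, the fly orthodenticle gene, at -4.10 with 1 cell (1.25%, against 24.4%). Lim3, Oli, tup, vnd, exex and HGTX were listed as markers of motoneurons that project to ventral muscles. Dr, grn and eve were listed as markers of those that project to dorsal ones. Of the 3 ventral markers that could be tested with Ets65A, Lim3 was low while Oli stood at 0.45 and tup at 0.61. Of the 2 dorsal ones, Dr was high and grn stood at 0.26. The remaining listed markers had expected overlaps under the minimum. Among them, the ventral markers exex and HGTX were found in 0 of 80 Ets65A cells, at -3.34 and -3.23. The ventral marker vnd, with 5 cells, stood at 0.39, and the dorsal marker eve, with 1 cell, at -1.05.

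Ets21C had 19 testable homeodomain genes, of which 2 (10.5%) reached 1 and 3 (15.8%) reached -1, beside 11.9% and 5.32% of 2878 genes. The share of high homeodomain genes was thus no larger than that of all genes. mirr, an Iroquois gene, was found in 20 of 30 Ets21C cells (66.7%, 47.2 to 82.7%), against 30.8% of the other cells, with a log2 odds ratio of 2.13, and lab reached 1.21. The value for lab turned to -0.19 with thinned reads. oc was at -1.77 (2 cells), abd-A at -2.13 (3 cells) and Abd-B, with no cell, at -4.28. Dr (14 of 30 cells, against 14.9%) and the POU gene nub (13 of 30, against 13.3%) stood at 2.33 and 2.32, with expected overlaps of 4.74 and 4.26 cells that were just under the minimum. These partners of Ets21C were picked after their values were seen.

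aop, with 58 testable homeodomain genes, was nearly even over them, since none reached 1 and 1 reached -1, beside 2.96% and 1.11% of all genes. The highest were Optix at 0.96, Dfd at 0.92 and B-H2 at 0.79. Among the lowest were unpg at -2.20 (2 of 296 cells, against 3.70%) and achi and slou, both at -0.75.

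With Ets96B low values were the more common ones. Of 18 homeodomain genes tested, 8 reached -1 and 2 reached 1, beside 5.44% and 12.9% of all genes. zfh1, a determinant of motoneuron identity, was found in 17 of 24 Ets96B cells (70.8%), against 46.4% of the other cells (1.43), and NK7.1 was at 1.15. mirr was found in 1 of 24 cells (4.17%), against 32.5% (-2.92). The low count was 4 without plate 10, 5 without plate 1 and 5 without plate 12, and it was 4 at 10 reads. Lim1 stood at -2.32, Abd-B at -2.30, oc at -2.23, hth at -1.42, vvl at -1.33, Ubx at -1.15 and lab at -1.10. The median of its homeodomain genes was -0.93, against 0.26 for all genes. Hence mirr was high with Ets21C and low with Ets96B.

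With pnt, 1 of 18 homeodomain genes reached 1, ct at 1.14, and 5 reached -1, beside 10.6% and 13.5% of all genes. The 5 were Abd-B (-2.30), eyg (-1.90), oc (-1.42), vvl (-1.33) and Lim1 (-1.19). Without the 8 cells lacking nSyb and brp, ct was at 0.76 and Lim1 at -0.84, and 2 genes reached -1 and none reached 1. The low count was also 2 without plate 5, 2 without plate 6 and 3 without plate 3, and 1 with thinned reads. Of all genes, 7.19% reached 1 and 2.78% reached -1 with Eip74EF, and 20.6% and 3.29% did with Ets97D. None of the 23 homeodomain genes tested reached 1 or -1 with Eip74EF, nor with Ets97D. The genes nearest to 1 were zfh1 with Eip74EF, at 0.99, and exd, a Hox cofactor, with Ets97D, at 0.77. Partners of pnt, Eip74EF, Ets96B and Ets97D were likewise named after their values were seen.

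**Figure D2:**
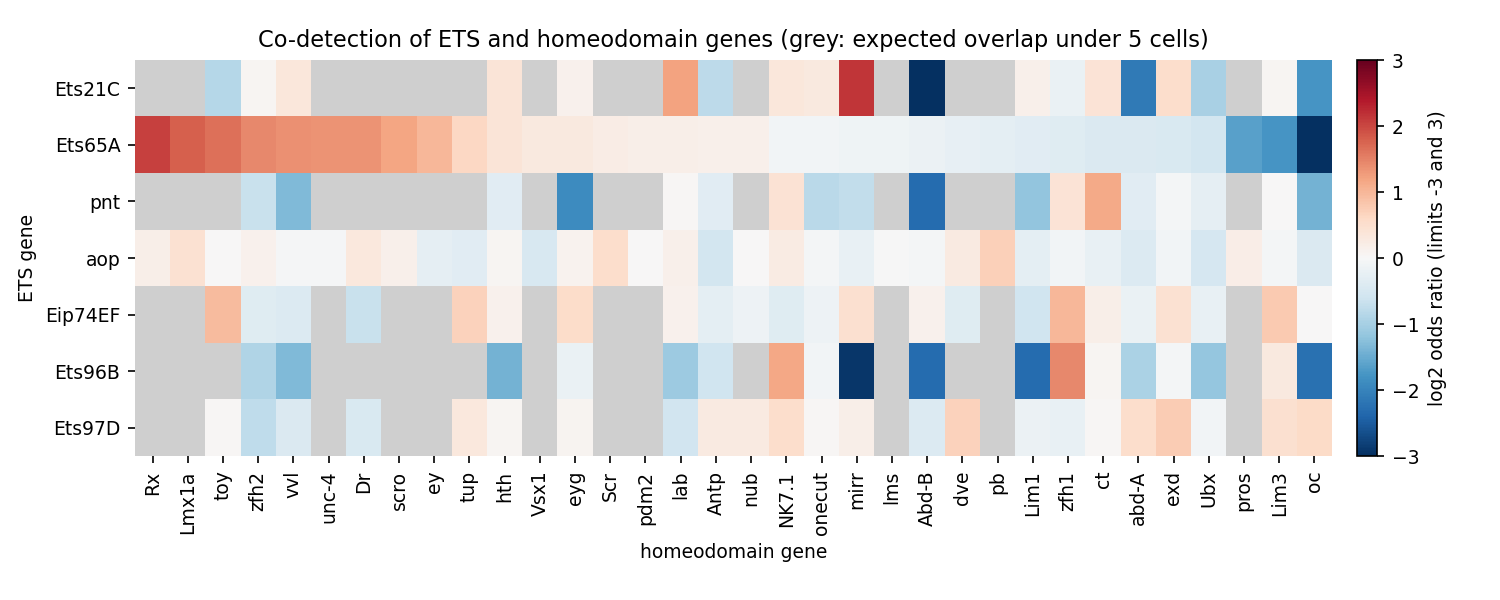
Log2 odds ratio of detection between each ETS gene (rows) and each homeodomain gene tested with Ets65A (columns, ordered by the Ets65A value), with colours limited to -3 and 3 and grey where under 5 shared cells were expected. Ets65A has 9 genes at or above 1 at the left and oc at -4.10 at the right, Ets21C is highest with mirr (2.13), Ets96B lies low with mirr (-2.92), and the aop row is pale.

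Combinations of the homeodomain genes that were high with Ets21C were looked at next. They were formed after the single values were known in these same cells. Higher shares than with single genes are therefore a description and support nothing further. All 10 cells with reads of mirr, nub and Dr had Ets21C (100%, 69.2 to 100%), with 12 to 2039 reads, and they lay on 8 plates. Of 57 cells with mirr and nub but no Dr, 1 had Ets21C. Of 36 with mirr and Dr but no nub, 4 had it, and of 9 with nub and Dr but no mirr, none had it. mirr alone gave 5 of 215 cells, nub alone 2 of 66 and Dr alone 0 of 103, and 8 of 503 cells with none of the 3 genes had Ets21C. When every gene was required at 10 reads, 9 of 9 such cells had Ets21C. So Ets21C was found where the 3 genes met and seldom where one of them was missing, but the 3-gene cells made up 10 of the 30 Ets21C cells.

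Ets65A gave a like picture with toy, Dr and vvl, chosen in the same way. Of 14 cells with reads of all 3 genes, 13 had Ets65A (92.9%, 66.1 to 99.8%), and these 13 lay on 9 plates with 3 to 1335 reads. None of 6 cells with toy and Dr but no vvl had it, 14 of 60 with toy and vvl but no Dr had it, and 1 of 41 with Dr and vvl but no toy had it. Ets65A was also found in 4 of 105 cells with toy alone, 10 of 97 with Dr alone, 22 of 295 with vvl alone and 16 of 381 with none of the 3. At 10 reads the share in cells with all 3 genes was 10 of 11. Most Ets65A cells thus lay outside this combination. Other combinations of its partners that were tried gave lower shares. Ets65A was found in 7 of 9 cells with toy, vvl and unc-4, 11 of 34 with Rx and Lmx1a and 7 of 20 with toy and unc-4.

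**Figure D3:**
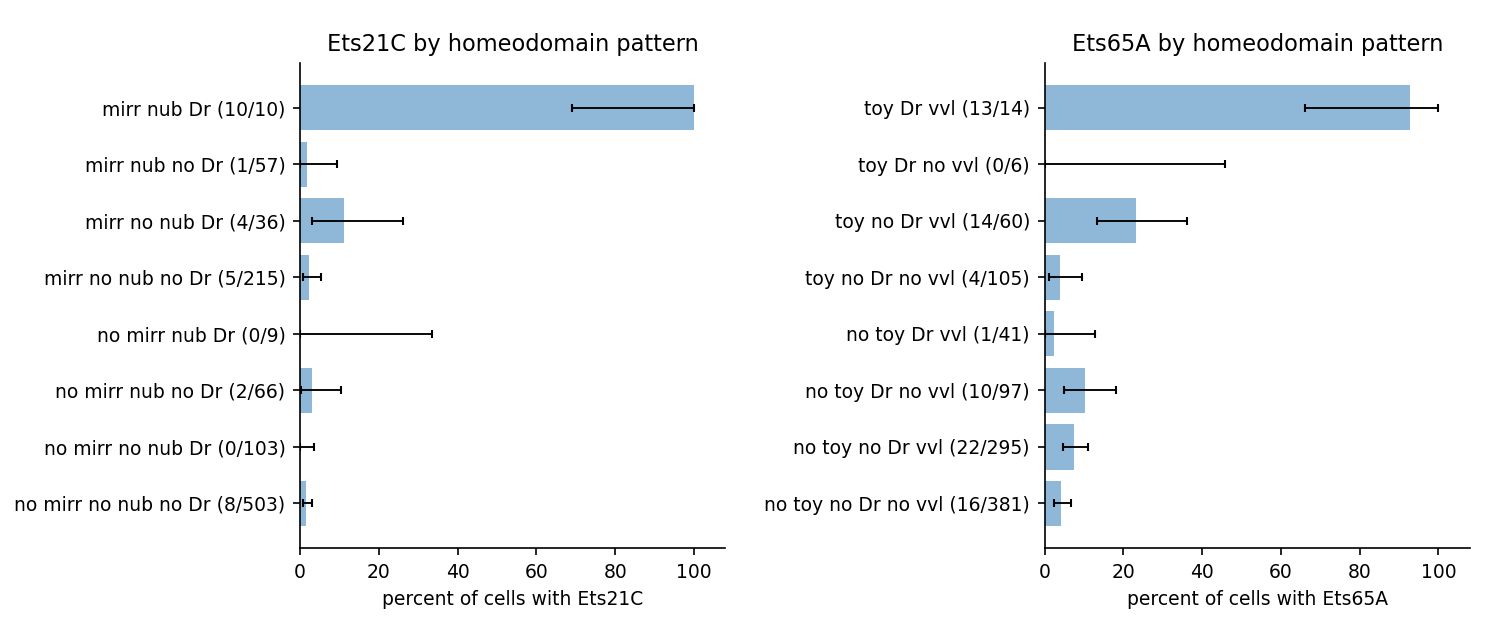
Percent of cells with at least 1 read of Ets21C (left, by mirr, nub and Dr) or Ets65A (right, by toy, Dr and vvl) for each combination of the 3 homeodomain genes, with exact 95% intervals and the number of cells in brackets. The cells with all 3 genes stand at 10 of 10 for Ets21C and 13 of 14 for Ets65A, and the next highest shares are 4 of 36 and 14 of 60.

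Groups of cells were then formed from homeodomain genes alone. The 733 cells with fewer than 10 reads of twit, a marker of one major class of these neurons, and of Vmat, a marker of aminergic neurons, included 524 with a Hox read, and these were placed in 60 clusters of 2 to 26 cells from 48 variable homeodomain genes. The share of the variance of an ETS gene that lay between clusters was 0.732 for Ets21C and 0.577 for Ets65A, which were ranks 1 and 9 of 6976 genes outside the clustered ones. Among these genes 7.30% reached 0.2 and the median was 0.125. aop stood at 0.156, Ets97D at 0.113, pnt at 0.101 and Eip74EF at 0.070, and Ets96B, with 3 cells at 10 reads or more and so below the minimum of 5, stood at 0.183. As Ets21C and Ets65A were chosen for this behaviour, their ranks support nothing further.

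**Figure D4:**
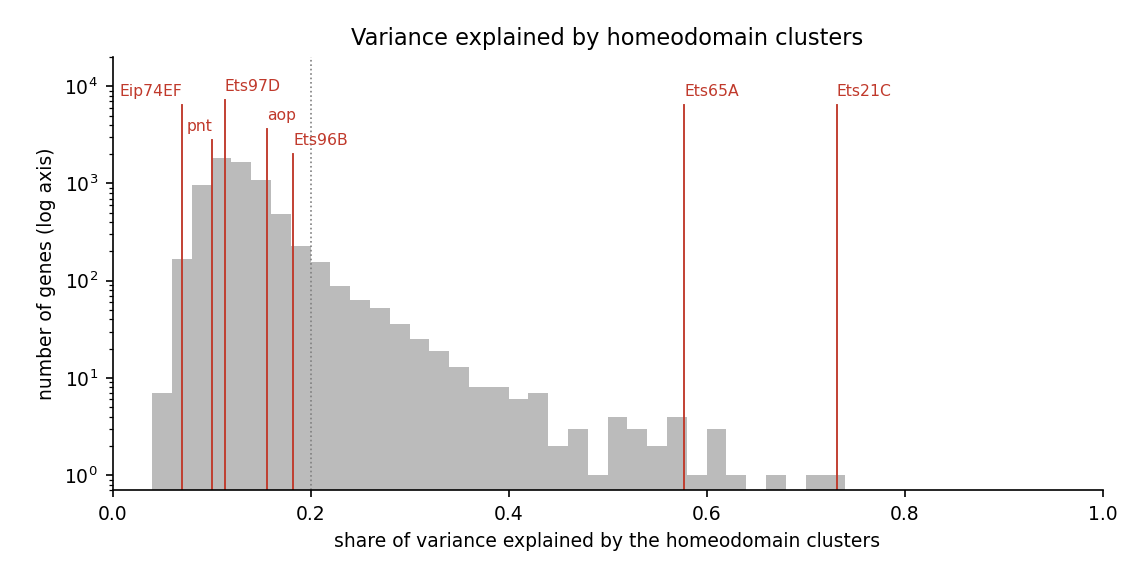
Number of genes (log axis) by the share of variance between the 60 homeodomain clusters in 524 cells, with each ETS gene as a red line and 0.2 as a dotted line. Ets21C at 0.732 and Ets65A at 0.577 lie far to the right, and the other 5 genes lie below 0.2.

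The value of Ets21C rested on a few cells. It was 0.389 without plate 14 and 0.528 without plate 13, and up to 0.849 when another plate was left out, whereas for Ets65A it ran between 0.471 and 0.643 over the plates. With 30 clusters Ets65A was at 0.266 and Ets21C at 0.636, and without Hox genes in the clustering Ets65A was at 0.689 and Ets21C at 0.496. Both stayed above 0.2 under every alternative tried.

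The 4 cells with the highest Ets21C counts fell in 1 cluster. All 8 cells of cluster 34 had Ets21C, with 2039, 2005, 1817, 1545, 792, 688, 428 and 54 reads, and they came from 5 plates. All 8 had Lim1, mirr and nub, and 7 had Dr and hth. In the other clusters 13 of 516 cells (2.52%) had Ets21C. Ets21C cells outside cluster 34 had up to 1511, 1422 and 1110 reads, above 4 of its 8 cells. The next clusters were cluster 40, with 2 of 6 cells and marked by Dfd, mirr and vvl, and cluster 38, with 1 of 5. Hence 1 cluster held 8 of the 21 Ets21C cells that were clustered.

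Ets65A was spread over several clusters with different homeodomain genes. In cluster 31 all 5 cells had it (515, 193, 51, 24 and 10 reads), and all 5 had Lmx1a, scro, vvl, mirr and zfh2. In cluster 39, 7 of 8 cells had it (1335, 876, 587, 198, 88, 31 and 3 reads), and all 8 had toy, unc-4, vvl, Lim1, hth and zfh2. In cluster 53, 7 of 8 cells had it (866, 756, 508, 359, 261, 183 and 47 reads), and all 8 had Antp, Dr, toy and zfh2. These clusters came from 3, 6 and 8 plates. Together they held 19 of the 36 Ets65A cells that were clustered, and zfh2 was the one clustered gene found in all of their cells, a gene that 69.4% of the cells outside cluster 39 also had.

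Hox genes give the position of a neuron along the anterior to posterior axis, and cells were classed by the most posterior Hox gene with a read. Ets21C was found in 6 of 79 lab cells, 3 of 33 Dfd cells, 2 of 47 Scr cells, 5 of 77 Antp cells, 4 of 106 Ubx cells, 3 of 176 abd-A cells and 0 of 234 Abd-B cells, and in 7 of 247 cells without a Hox read. A count of 0 in 234 cells allows a share of up to 1.28% by the floor of 3 counts and up to 1.56% by the exact interval. That interval lay below those of the lab (2.84 to 15.8%), Dfd (1.92 to 24.3%) and Antp (2.14 to 14.5%) classes, and it overlapped those of the Scr, Ubx and abd-A classes and of the cells without a Hox read. The Abd-B class had the highest median depth of all classes, at 377364 counts. The separation depended on the minimum of Hox reads. With Hox classes called at 10 reads, Ets21C was found in 0 of 178 Abd-B cells (up to 2.05%). That interval overlapped those of every other class, among them lab (from 1.86%), Dfd (from 1.86%) and Antp (from 1.70%).

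Ets65A was found in every class, in 3.77% of the Ubx cells at the lowest and 15.2% of the Dfd cells at the highest, with overlapping intervals. aop was even over the classes, between 23.9% in abd-A cells and 36.4% in Dfd cells. Ets96B was found most often in the cells without any Hox read, in 14 of 247 (5.67%, 3.13 to 9.33%). The 752 cells with a Hox read gave 10 Ets96B cells, of which 3 were Antp, 2 Ubx, 4 abd-A and 1 Abd-B, and none were lab, Dfd or Scr. At 10 reads of Ets96B, 11 of 15 cells had no Hox read. Ets97D, pnt and Eip74EF were found in 14, 10 and 14 of the 247 cells without a Hox read.

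**Figure D5:**
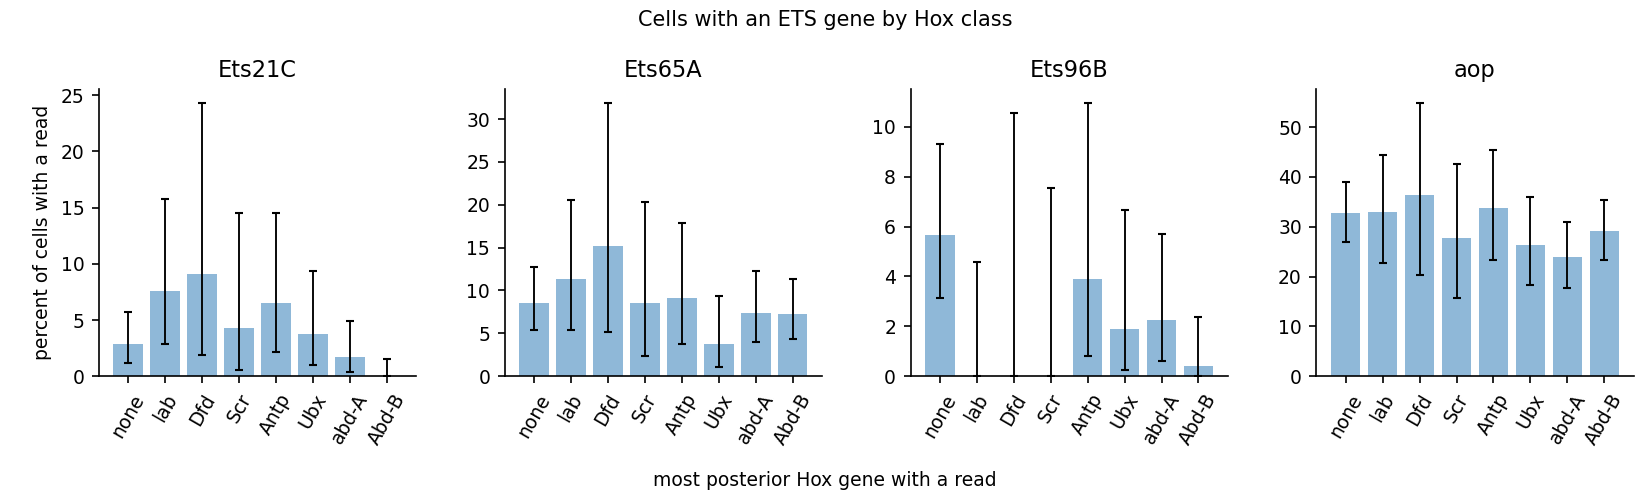
Percent of cells with at least 1 read of Ets21C, Ets65A, Ets96B and aop by the most posterior Hox gene with a read, from none through lab to Abd-B, with exact 95% intervals and a separate axis for each gene. Ets21C is at 0 of 234 in the Abd-B class, Ets96B is highest at 14 of 247 in cells without a Hox read, and aop lies between 23.9% and 36.4% in every class.

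By motoneuron class, Ets21C was found in 1 of 196 cells with at least 10 reads of twit (0.510%, 0.0129 to 2.81%) and 1 of 79 with at least 10 reads of Vmat, against 28 of 733 cells with fewer of both (3.82%, 2.55 to 5.47%). Ets65A was found in 20 of 196 twit cells (10.2%) and 6 of 79 Vmat cells (7.59%), against 54 of 733 (7.37%), and these intervals overlapped. aop was found in 58 of 196 twit cells (29.6%) and 14 of 79 Vmat cells (17.7%), against 225 of 733 (30.7%). Median depth was 344030 counts in the twit cells and 283798 in the Vmat cells, against 341603 in the others. Ets96B was found in 4 twit cells, 1 Vmat cell and 19 others, of which 13 were among 209 without a Hox read and 6 among 524 with one.

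Next, the genes whose level went most with each ETS gene were listed among 6129 genes of all kinds, homeodomain genes included. The measure was the Pearson correlation over the 999 cells of log2 values, after removal of plate means and of the number of genes detected. The cells share libraries and plates, and the values are given as a description. For Ets65A the highest were hbn (0.24), toy (0.19), rgn (0.19), Lmx1a (0.17) and CG15765 (0.17). hbn, the homeobrain homeodomain gene, had reads in 43 cells, of which 16 were Ets65A cells. The lowest were trv (-0.16), the adhesion molecule Fas2 (-0.15) and the allatostatin C receptor AstC-R2 (-0.14). Fas2 was found in 28 of 80 Ets65A cells, although 518 of the 999 cells had it.

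For aop the highest were GILT1 (0.20), TBCD (0.14), CG42353 (0.14), the RNA-binding protein gene heph (0.12) and Atg17 (0.12), and the lowest were the adhesion molecule Dscam2, eIF4EHP and lost (all -0.11). No gene thus followed aop closely. The genes nearest to the remaining members were seen only after the fact. For Ets21C they were the adenylate cyclase Ac76E (0.22), mirr (0.20), the neuropeptide gene Dh31 (0.20), the Pitx homologue Ptx1 (0.20) and nub (0.18). Dh31 had reads in 76 cells, and 11 of these were among the 30 Ets21C cells. Leaving out the 8 cells without nSyb and brp moved the 5 Ets21C values to between 0.19 and 0.23.

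Ets96B had the closest partners of the family. They were TfAP-2 (0.51), disco (0.37), fkh (0.34), RunxB (0.34) and GILT1 (0.32), of which the first 4 encode transcription factors, and GILT1 was also the nearest gene to aop. TfAP-2 had reads in 44 cells, of which 12 were Ets96B cells. Of 14 cells with TfAP-2, fkh and disco, 8 had Ets96B, with 10 to 2930 reads on 6 plates. It was found in 4 of 22 cells with TfAP-2 and fkh but no disco, in 3 of 7 with fkh and disco but no TfAP-2, and in none of 89 with fkh alone. The 825 cells with none of the 3 genes gave 9 Ets96B cells, whose median was 1 read. At 10 reads of each gene, 14 of the 15 Ets96B cells had fkh.

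For pnt the values rested on the cells lacking nSyb and brp. Its lowest values were those of the neuronal genes fax (-0.21), Rdl (-0.20) and nrv3 (-0.19), which were at -0.03, -0.03 and -0.02 without the 8 cells. Its highest were GstO3 (0.22), Gel (0.22), Ahcy (0.21), Nsun5 (0.21) and spz (0.20), of which Nsun5 was at 0.18 and none of the other 4 was above 0.09 without them.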

How the data were processed

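Single-cell SMART-Seq2 libraries of OK371>RFP cells were analysed from a table of whole-number gene counts and from 1 file per cell with transcript estimates, each holding 30651 transcripts. Per the submitters' processing notes, the authors used kallisto 0.43.0, R 3.5.1 and the BDGP6 build. The deposited gene counts were not normalized, the deposited transcript files held estimated counts and TPM made by the authors with kallisto, and the cells had passed the filter of the authors. Estimated counts were summed per gene and rounded where a gene was not in the gene counts. The 16 plates, read from the cell titles, were treated as technical batches.

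Analysis used Python 3.11.15 with numpy 2.4.6, scipy 1.17.1 and pandas 2.3.3, and gene loci came from BDGP6.54, in which transcripts were matched by identifier. A gene was detected at 1 read. Odds ratios left out 19 genes detected in every cell. The variance share used log2(normalized count + 1) in Ward clusters, with a gene-wise normalization constant of 1e+06. The likeness fit used genes with at least 10 reads in 20 cells. No test was made, since the cells form 1 pooled sample, and the statistics were tested on simulated data. Depth, given in the report as total counts per cell, limits each share through its interval.

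The members and gene lists were chosen with earlier results of these data known. Genes named were every member and, for members in at least 50 cells (Ets65A and aop), the 3 highest and 3 lowest homeodomain odds ratios and the 5 highest and 3 lowest correlations. From pathway lists, genes in at least 50% of cells and the 3 highest and 3 lowest were named, and for clusters of at least 5 cells the 3 highest for Ets21C and Ets65A. One gene that this rule names with aop is not reported here. Other names were chosen after their values were seen. Alternatives were a minimum of 10 reads, thinning to 50000 reads, odds ratios within plates, other cell sets and filters, other clusterings and leaving out each plate. Leaving out the cells that lack nSyb and brp was added after seeing the data.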

Additional observations from a re-analysis of the deposited data

Results flagged for a closer look

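Ets98B was not in the gene counts, and the transcript estimates gave it 196 counts in its highest cell, above the 3 counts that a count of 0 allows. The other cells with reads of Ets98B had 3 and 2 counts, and 199 of the 201 estimated counts went to Ets98B-RB. The cell with 196 counts stood at 809 TPM.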

How the results depend on the processing

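Counts of homeodomain genes past 1 or -1 depended on the settings. The count at or above 1 with Ets21C was 2, and it was 1 at 10 reads, 1 with thinned reads, 12 without the filter on expected overlap and 1 to 2 when each plate was left out (1 without plate 1 or 13), while 3 genes reached 1 in low-twit cells. Its count at or below -1 was 3, and it was 5 with thinned reads, 5 in low-twit cells (under 10 reads of twit and of Vmat), 15 without the filter and 2 to 5 over the plates (5 without plate 2, 9, 13 or 15). For Ets65A the 9 high genes were 4 at 10 reads, 4 with thinned reads, 5 in low-twit cells, 16 without the filter and 6 to 9 over the plates, and the 3 low genes were 6 in low-twit cells, 15 without the filter and 3 over all plates. For aop the high count of 0 was 1 at 10 reads, 1 with thinned reads and 0 to 1 over the plates (1 without plate 2, 5, 13, 14 or 17), and the low count of 1 was 2 at 10 reads, 2 within plates and 1 to 3 over the plates (2 without plate 6, 11 or 13 and 3 without plate 17). For Ets96B the 8 low genes were 4 to 9 over the plates, and for pnt the 5 low genes were 2 to 6. Without the filter a gene can pass on 1 or 2 shared cells. Of 50 odds ratios recomputed, 7 changed sign under at least 1 setting, of which 2 were past 1 or -1, Ets21C with lab (-0.19 with thinned reads) and pnt with eyg (0.27 at 10 reads), and the cause was not tested. Of all values recomputed, left-out plates aside, 370 were counted as unchanged and 51 as moved. A further 29 passed the threshold newly, 5 fell below it and 2 reversed. An odds ratio under 1 in size that changed sign and stayed under 1 was counted as unchanged. With 90 clusters 39.95% of all genes reached 0.2 in variance share, so that aop (0.205) and pnt (0.205) passed it too, and with 30 clusters 1.38% did. No paired analysis was possible because the cells form a single group with no replicate numbers. Depth limits most members, since at a minimum of 1 read the intervals of genes seen in 24 to 44 cells overlap. Genes seen at 1 read in a cell may also be missed in others.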
